A study of Mus musculus with 12 samples.

Results

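The proteasome is the ATP-driven protease that degrades ubiquitin-tagged proteins, and its constitutive subunits and activators were examined here in the small intestine of mice given tauroursodeoxycholic acid (TUDCA) or vehicle. The genes were those whose probe set named exactly 1 gene with a symbol starting Psma, Psmb, Psmc, Psmd or Psme and a digit, leaving out pseudogenes and the immunoproteasome genes Psmb8, Psmb9 and Psmb10. This gave 40 of 23991 probe sets, 1 per gene, or 40 of the 21408 genes named singly. They held 7 genes of the 20S alpha ring, 8 of the beta ring, 5 of the 19S ATPases, 3 other subunits of the 19S base, 8 of the lid, 3 chaperones of 19S assembly and 4 activators. The other 2, Psmc3ip and Psme3ip1, met the rule by their symbols, although the first encodes a factor of meiotic recombination and the second a protein that binds an activator. Psma4 was named only on probe sets shared with another gene, and neither it nor Psmc3 is analysed here.

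The TUDCA group had 6 arrays, from mice given 200 mg/kg TUDCA in a daily intraperitoneal injection, and the vehicle group had 6 arrays, from mice given the same 200 µl without it. All mice were wild-type BALB/c recipients that had been irradiated and transplanted with marrow plus T cells of C57BL/6N mice, a model of acute graft-versus-host disease, and tissue was taken on day 14. Age and sex are not in the labels. TUDCA is a taurine-conjugated bile acid also used as a chemical chaperone, and the comparison asks what it did to the intestinal transcriptome, with apoptosis and inflammation named in the title of the series.

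In the proteasome, a 20S barrel of stacked alpha and beta rings encloses the peptidase sites, which sit on the beta subunits β1, β2 and β5, encoded by Psmb6, Psmb7 and Psmb5. The 19S particle caps the barrel, where it recognises and strips ubiquitin chains, and its ATPase ring unfolds the substrate and threads it in. Interferon gamma induces the immunoproteasome subunits Psmb9, Psmb10 and Psmb8, which replace β1, β2 and β5 in newly built barrels, and also the PA28 activator genes Psme1 and Psme2. In the gut of graft-versus-host disease, where T cells release this cytokine, these forms help to make the peptides shown on MHC class I.

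The samples carry numbers of 2 ranges, a low one with 2 TUDCA and 4 vehicle arrays and a high one with 4 TUDCA and 2 vehicle arrays. Their meaning is not given in the labels, so each difference was fitted within them, and no probe set of 23991 differed between the ranges after adjustment. The description field of the labels names CXCL12-abundant reticular cells, against small intestine in the other fields. Of 8 enterocyte markers 7 lay above the 99th percentile of the probe sets, for example Fabp2 with a mean log2 value of 13.19 and Vil1 with 12.17, whereas Lct was at 5.26. Of 6 reticular markers Kitl (8.496), Cxcl12 (7.71), Lepr (6.54) and Adipoq (6.09) lay above the median of the probe sets, and Ebf3 (5.81) and Foxc1 (4.55) below it. TUDCA replicate 2 had the lowest mean of the 10 T and NK cell markers, 5.85, against 6.79 to 7.34 on the other TUDCA arrays and 7.21 to 7.97 on the vehicle arrays.

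Promoters are shown of 2 catalytic genes with log2 differences above 0 and of the 2 PA28 genes with log2 differences below 0, none past the threshold. Sequences are those of RefSeq on GRCm38.p6, from 250 bases before to 50 after the annotated start, 5′ to 3′ on the gene's strand. Capitals mark a match to TGACNNNGC, the core of the antioxidant response element bound by the proteasome gene activator NRF1 and its relative NRF2, or to a pair of GAAA with any 2 bases between them, the core of interferon-stimulated response elements. CCAAT and TTCNNNGAA were searched too, and each motif on both strands. The window of Psme2 has no capitals.
Psmb5, chr14:54617946-54618245, minus strand: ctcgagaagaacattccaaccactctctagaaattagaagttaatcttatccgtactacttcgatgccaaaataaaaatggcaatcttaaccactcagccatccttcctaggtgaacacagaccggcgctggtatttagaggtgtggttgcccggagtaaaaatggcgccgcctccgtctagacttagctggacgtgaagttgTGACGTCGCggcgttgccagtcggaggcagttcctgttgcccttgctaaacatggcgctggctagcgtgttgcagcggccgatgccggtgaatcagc
Psmb6, chr11:70525107-70525406, plus strand: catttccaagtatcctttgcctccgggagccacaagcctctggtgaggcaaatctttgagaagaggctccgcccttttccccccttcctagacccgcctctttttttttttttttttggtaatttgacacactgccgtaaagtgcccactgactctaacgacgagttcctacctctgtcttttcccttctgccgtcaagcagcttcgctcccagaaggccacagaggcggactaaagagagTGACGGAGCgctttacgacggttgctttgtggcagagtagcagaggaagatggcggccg
Psme1, chr14:55578244-55578543, plus strand: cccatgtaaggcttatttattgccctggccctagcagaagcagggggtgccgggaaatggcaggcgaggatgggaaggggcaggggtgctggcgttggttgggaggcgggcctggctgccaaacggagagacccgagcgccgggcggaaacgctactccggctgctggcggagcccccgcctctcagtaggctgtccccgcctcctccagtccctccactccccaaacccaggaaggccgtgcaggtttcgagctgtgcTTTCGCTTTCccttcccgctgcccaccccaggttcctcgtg
Psme2, chr14:55590972-55591271, minus strand: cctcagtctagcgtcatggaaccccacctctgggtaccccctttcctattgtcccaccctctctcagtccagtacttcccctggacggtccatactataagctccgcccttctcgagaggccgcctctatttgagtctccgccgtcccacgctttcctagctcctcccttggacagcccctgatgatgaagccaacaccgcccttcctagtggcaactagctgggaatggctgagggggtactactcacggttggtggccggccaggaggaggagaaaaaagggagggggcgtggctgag

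The matches were 1 TGACNNNGC in Psmb5, whose first base lay 47 bases before the start, 1 in Psmb6 from 9 bases before it, and 1 pair of GAAA on the minus strand of Psme1, from 9 bases after it. No match to any motif searched was found in the printed window of Psme2 or in a second window from another start of that gene. Promoters were found for 34 of the 40 genes, in 38 windows. TGACNNNGC was in 15.8% of these windows, against 12.4% of all 32851 promoter windows, CCAAT in 39.5% against 37.4%, and the pair of GAAA in 10.5% against 3.44%. TTCNNNGAA went the other way, with 2.63% against 8.3%. In the 3 windows of Psmb8, Psmb9 and Psmb10 the pair of GAAA had no match, and TTCNNNGAA matched in Psmb8 alone. By subcomplex, CCAAT, the box bound by NF-Y, was in 71.4% of 7 alpha ring windows, 40% of 5 beta ring windows, 27.8% of 18 windows of 19S subunits and 20% of 5 activator windows. Such a match describes the letters of the window and is not evidence of binding.

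No proteasome gene passed the threshold of an adjusted p of 0.05 between TUDCA and vehicle, in limma with Benjamini-Hochberg adjustment over all probe sets. The count was 0 higher and 0 lower of 40, where 1.00% of all probe sets were called higher and 1.52% lower, 2.52% in all. The smallest adjusted p was 0.12, of Psmb5. At an unadjusted p under 0.05, 5 genes were higher (Psmb5, Psmb7, Psma6, Psmc6 and Psmd5) and 0 lower, which is 12.5% of the 40 beside 14.1% of all probe sets in either direction (7.24% higher and 6.84% lower). For no gene did the groups fail to overlap, where 0.800% of all probe sets had every TUDCA array above every vehicle array and 1.18% every TUDCA array below.

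The log2 differences were small and their intervals narrow. For 39 of 40 genes the 95% interval lay within ±0.5 log2 units, a change of at most 1.41-fold either way, and for 16 within ±0.25. Psma5, an alpha ring subunit with a log2 difference of −0.21 (95% interval −0.57 to 0.15), was the exception. Over all 23991 probe sets, 21643 intervals lay within ±0.5 and 7816 within ±0.25. Of the differences of the 40 genes 29 were above 0 and 11 below, or 72.5% above 0, against 53.3% of all probe sets. Their median was 0.08, beside 0.01 over all probe sets. The median residual SD of the fit was 0.12 over the 40 genes and 0.15 over all probe sets. In whole tissue, fewer cells of a type and less RNA per cell cannot be told apart.

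**Figure D1:**
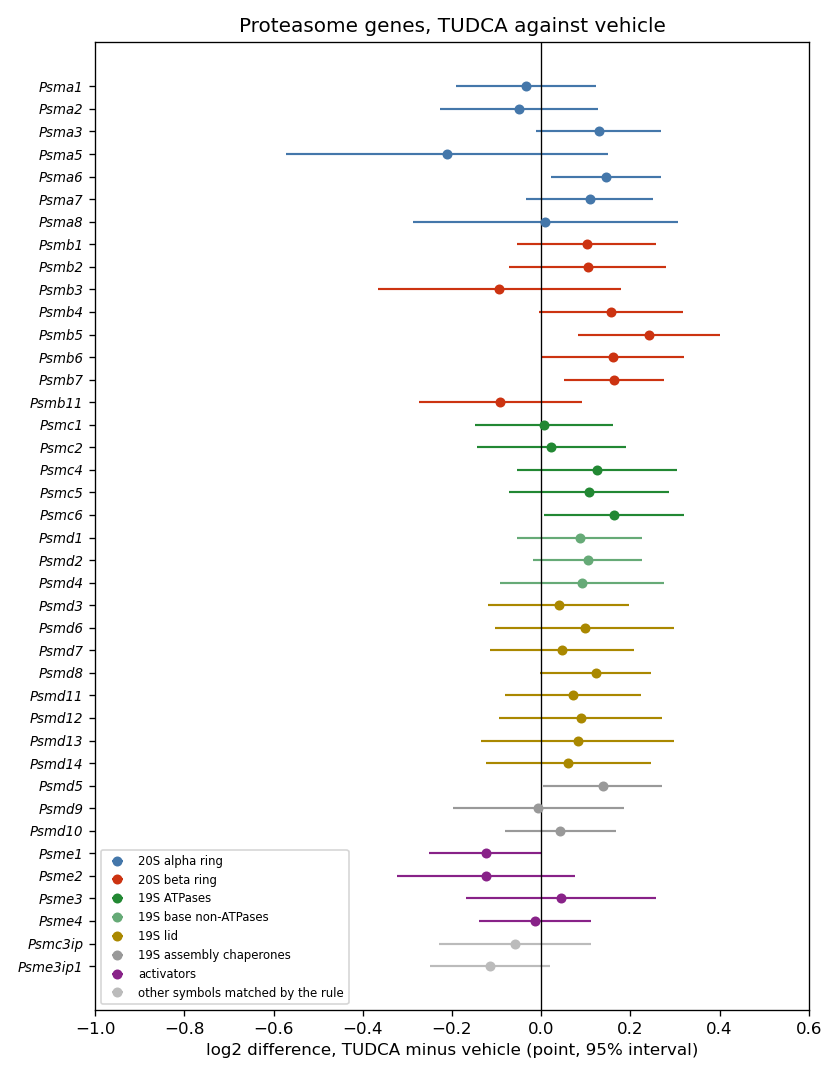
Log2 difference between TUDCA and vehicle (horizontal axis, TUDCA minus vehicle) for the 40 proteasome genes, grouped by subcomplex. Points are limma estimates and lines 95% intervals, n = 6 arrays per group; Psmb5 at 0.24 lies farthest to the right and Psma5 at −0.21 farthest to the left.

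The 3 catalytic genes of the constitutive barrel had log2 differences between 0.16 and 0.24, and none passed the adjusted threshold. Psmb5 encodes β5, which cuts after hydrophobic residues and is the main target of the inhibitor bortezomib. Its log2 values under TUDCA had a lowest of 8.05, a median of 8.36 and a highest of 8.44, and under vehicle 7.94, 8.13 and 8.29. Its TUDCA values exceeded every vehicle value on 4 of 6 arrays. The difference was 0.24 ± 0.07 (SE), a fold of 1.18 with a 95% interval from 1.06 to 1.32, and adjusted p = 0.12 (unadjusted p = 0.0055). Without TUDCA replicate 3 it was 0.27 and passed (adjusted p = 0.0459).

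Psmb7, encoding the trypsin-like β2, varied least of the 40 genes, with a residual SD of 0.057. TUDCA arrays had a lowest of 9.47, a median of 9.57 and a highest of 9.66, and vehicle arrays 9.34, 9.41 and 9.51. Of the 6 TUDCA arrays 5 lay above every vehicle array, with a difference of 0.16 ± 0.05 (SE, adjusted p = 0.145). Psmb6, encoding the caspase-like β1, ran from 8.67 through a median of 8.94 to 9.09 under TUDCA and from 8.66 through 8.79 to 8.99 under vehicle. Its groups overlapped more, and the difference was 0.16 ± 0.07 (SE, adjusted p = 0.355).

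Among the non-catalytic beta subunits, Psmb4, which encodes β7, had a difference of 0.16, and Psmb1 (β6) and Psmb2 (β4) had 0.10 each. Psmb3 (β3) was at −0.09 and Psmb11 also at −0.09. Psmb11 encodes β5t, a catalytic subunit of thymic cortical epithelium, and its mean of 4.80 under TUDCA and 4.86 under vehicle lay at the 29.7th percentile of the probe sets. Over the 8 beta ring genes the median difference was 0.13, and 6 were above 0 in both number ranges, where 30.1% of all probe sets were. The median stayed between 0.11 and 0.16 under every alternative tried.

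The alpha ring forms the gate of the barrel, and its 7 genes had a median difference of 0.01, with 4 above 0. With dim probe sets left out, Psma5 and Psma8 among them, the median was 0.11. Psma6 (α1) ran from 8.75 through a median of 8.83 to 8.94 under TUDCA and from 8.62 through 8.70 to 8.83 under vehicle, with a difference of 0.14 ± 0.06 (SE, adjusted p = 0.261). Psma3 (α7) ran from 9.96 through 10.16 to 10.26 under TUDCA and from 9.85 through 9.99 to 10.10 under vehicle, with a difference of 0.13 ± 0.07 (SE, adjusted p = 0.399). In both, a part of the TUDCA arrays, 3 for Psma6 and 4 for Psma3, stood above all vehicle arrays. Psma7 (α4) was at 0.11, and Psma1 and Psma2 were at −0.03 and −0.05. Psma8, a testis variant of α4, was at 0.01, with means of 4.91 under TUDCA and 4.84 under vehicle, at the 30.4th percentile. With Psmb11, Psma5, Psmb3 and Psmc3ip it is 1 of 5 genes below the median level of the probe sets, where differences can be compressed. Among them Psma5 had the lowest difference and the largest residual SD (0.33) of all proteasome genes examined.

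**Figure D2:**
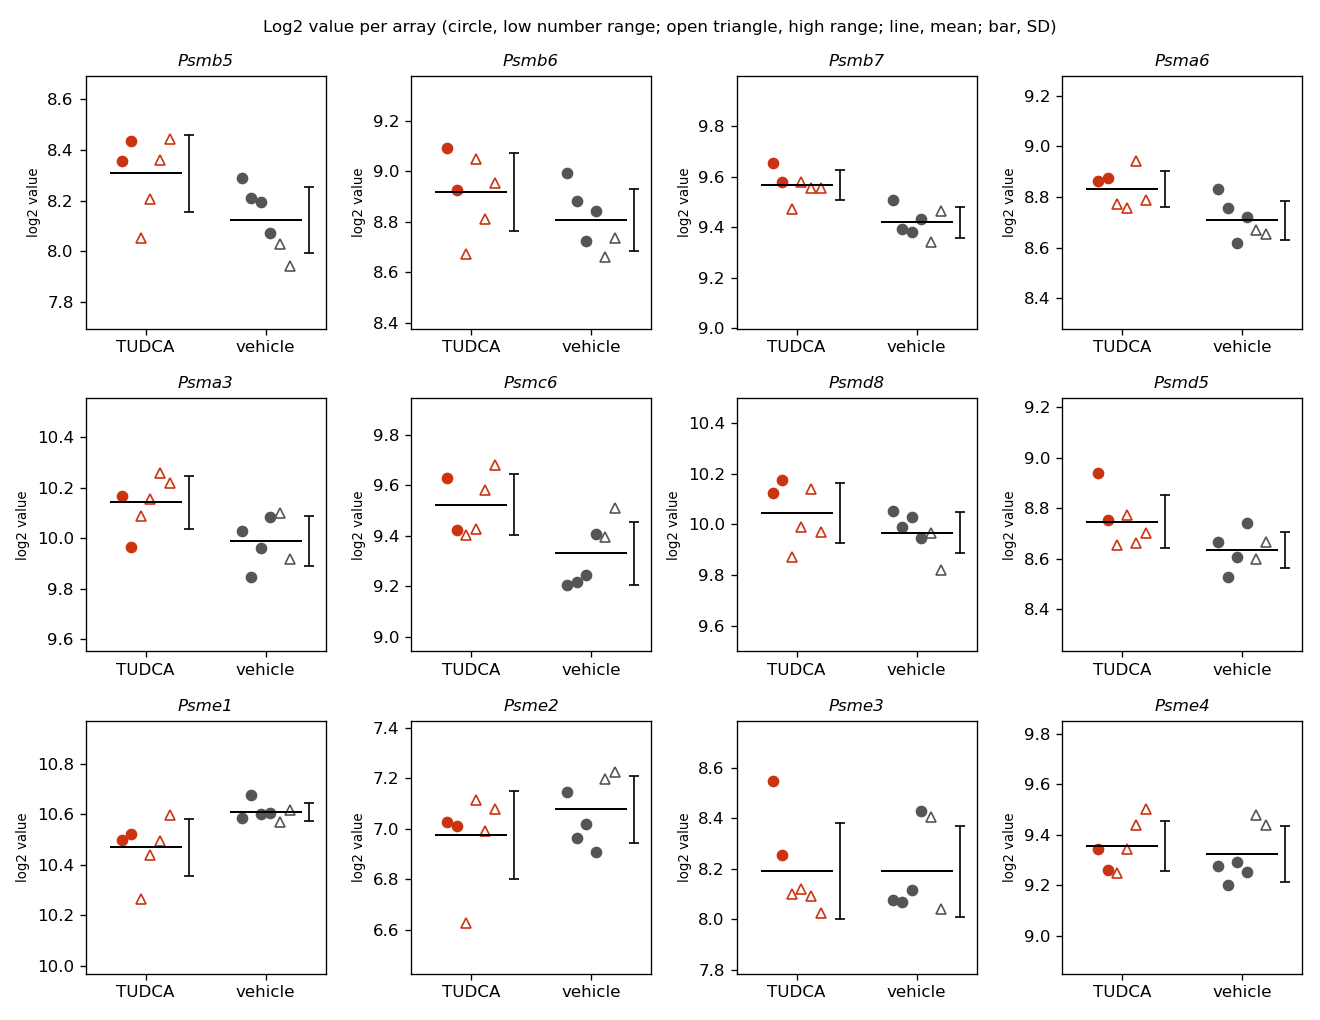
Log2 values per array (vertical axes, each spanning 1 log2 unit) of the 3 catalytic genes, 2 alpha ring genes, 3 genes of the 19S particle and its assembly, and the 4 activators. TUDCA arrays are red and left, vehicle arrays grey and right, with the group mean as a line and the SD as a bar (n = 6 each); for Psmb7 5 TUDCA arrays lie above all vehicle arrays, for Psme1 5 lie below.

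The 19S genes had differences above 0, fitted with the number range, without exception among the ATPases, the other base subunits and the lid. None passed, and the plain group means of Psmc1, Psmc2 and Psmd3 were not higher under TUDCA. These were 8.94, 8.92 and 8.84 under TUDCA, against 8.94, 8.95 and 8.86 under vehicle. Of the 5 ATPase genes, which encode the motor, Psmc6 (Rpt4) ran from 9.40 through a median of 9.50 to 9.68 under TUDCA and from 9.21 through 9.32 to 9.51 under vehicle. Its difference was 0.16 ± 0.07 (SE, adjusted p = 0.331). Psmc4 (Rpt3) ran from 9.71 through 10.05 to 10.31 under TUDCA and from 9.78 through 9.98 to 10.15 under vehicle, so the TUDCA arrays held both the lowest and the highest value. Psmc5 was at 0.11, Psmc2 at 0.02 and Psmc1 at 0.01.

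In the base, Psmd2 (Rpn1), a docking site for ubiquitin-like shuttles, ran from 9.44 through 9.58 to 9.68 under TUDCA and from 9.44 through 9.48 to 9.54 under vehicle, with a difference of 0.10 ± 0.06 (SE, adjusted p = 0.451). Psmd1 (Rpn2), the other scaffold, ran from 9.31 through 9.43 to 9.63 under TUDCA and from 9.29 through 9.33 to 9.52 under vehicle. Psmd4 (Rpn10), a ubiquitin receptor, was at 0.09.

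The 8 lid genes had a median difference of 0.08, from 0.04 for Psmd3 to 0.12 for Psmd8. Psmd8 (Rpn12) ran from 9.87 through a median of 10.06 to 10.18 under TUDCA and from 9.82 through 9.98 to 10.05 under vehicle, with a difference of 0.12 ± 0.06 (SE, adjusted p = 0.362). Psmd12 (Rpn5) ran from 8.95 through 9.07 to 9.34 under TUDCA and from 8.87 through 8.94 to 9.29 under vehicle. Psmd7 (Rpn8), Psmd11 (Rpn6) and Psmd13 (Rpn9) were at 0.05, 0.07 and 0.08. Psmd14 (Rpn11), the deubiquitinase of the lid, was at 0.06 ± 0.09 (SE). Psmd5, a chaperone that holds ATPases during assembly, ran from 8.66 through 8.73 to 8.94 under TUDCA and from 8.53 through 8.64 to 8.74 under vehicle, with a difference of 0.14 ± 0.06 (SE, adjusted p = 0.337). The other 2 chaperone genes, Psmd10 (gankyrin) and Psmd9, were at 0.04 and −0.01. Psmd10 ran from 7.71 through 7.75 to 7.86 under TUDCA and from 7.59 through 7.72 to 7.79 under vehicle.

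**Figure D3:**
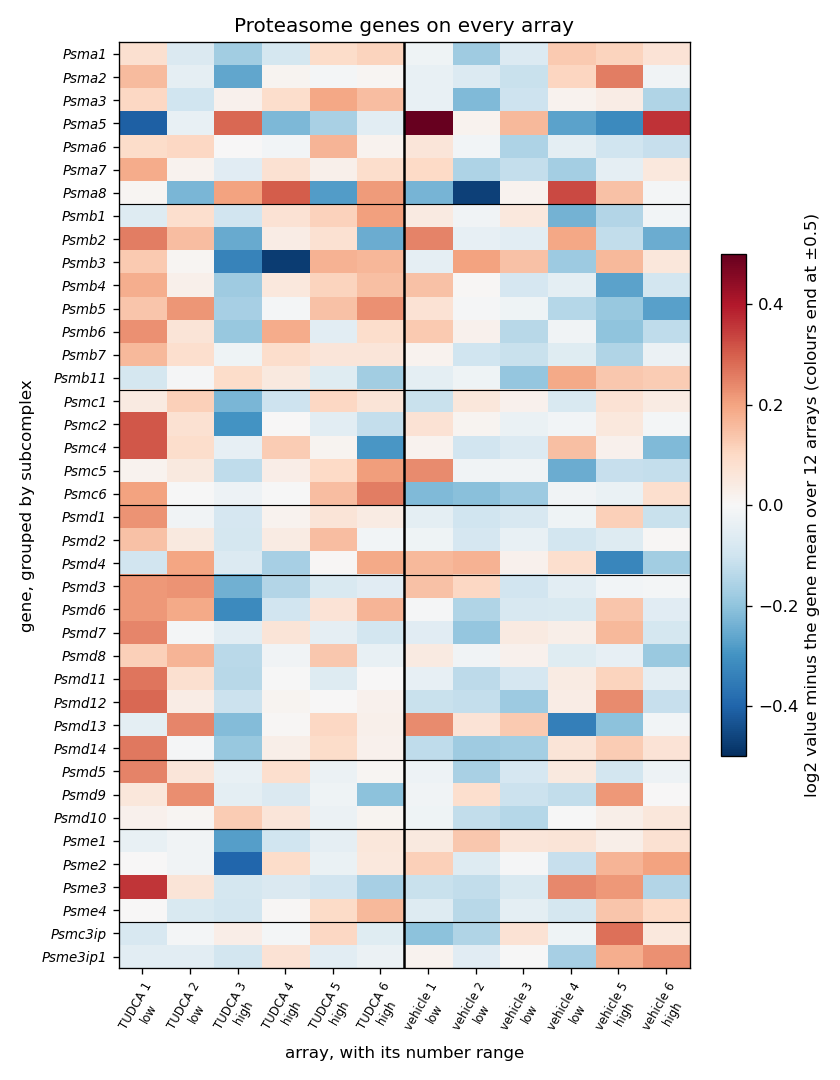
Deviation of each of the 40 genes (rows, by subcomplex) from its mean over the 12 arrays (columns, TUDCA left of the line, with the number range). TUDCA replicate 1 is the highest array for 15 genes and TUDCA replicate 3 the lowest for 10.

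Single arrays stood at the extremes for many proteasome genes. TUDCA replicate 1 was the highest of the 12 arrays for 15 of the 40 genes, with a median deviation of 0.13 from the gene means, and TUDCA replicate 3 was the lowest for 10, with −0.09. The mean over the 38 subunit and chaperone genes was 8.65 on TUDCA replicate 1 and 8.42 on TUDCA replicate 3, so 1 group held both extremes. The other 4 TUDCA arrays had 8.53 to 8.59 and the vehicle arrays 8.47 to 8.56. Without TUDCA replicate 1 the median difference of the 40 genes was 0.01.

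Differences above 0 were more frequent in the low number range. There 35 of 40 differences were above 0, with a median of 0.13. In the high range 21 of 40 were below 0, with a median of −0.03. Over all probe sets the medians were 0.009 in the low and 0.010 in the high range. In both ranges 17 of the 40 genes were above 0, where 30.1% of all probe sets were. TUDCA replicate 1, the highest array for 15 of the genes, was 1 of the 2 TUDCA arrays of the low range. TUDCA replicate 3, the lowest for 10, was in the high range. For the lid the median was 0.21 in the low range and −0.08 in the high range. Psmd6 (Rpn7) had the widest split, with 0.28 in the low range and −0.09 in the high range, among the lid genes. Psmb5, Psmb6 and Psmb7 kept 0.20, 0.15 and 0.19 in the low range and 0.28, 0.17 and 0.14 in the high range. No interaction of treatment and range passed, neither for the 40 genes (adjusted p of 0.598 or more) nor for any probe set.

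**Figure D4:**
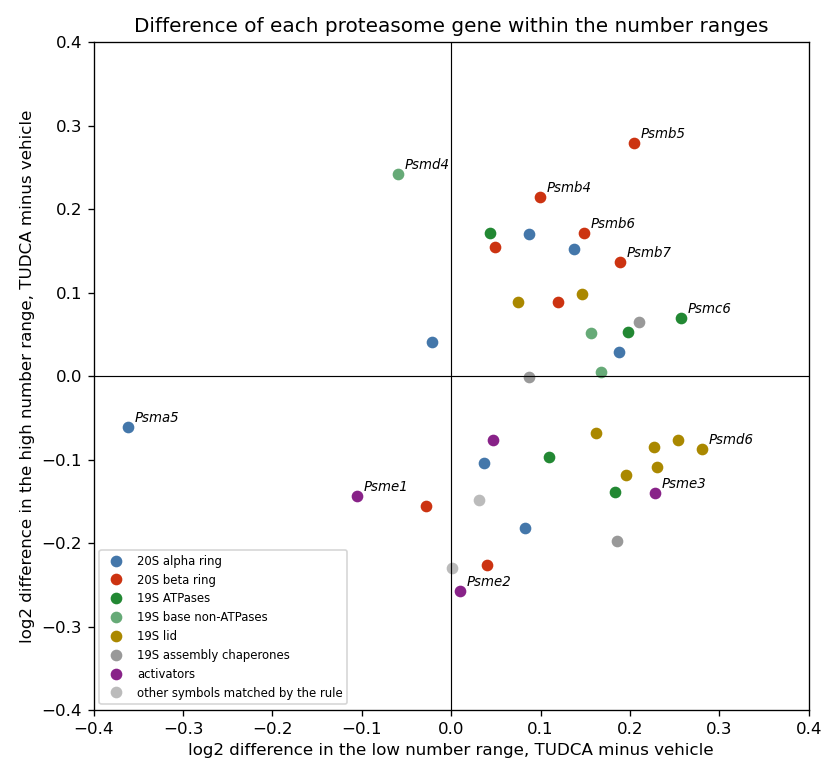
Log2 difference between TUDCA and vehicle within the low number range (horizontal axis, 2 TUDCA and 4 vehicle arrays) and within the high range (vertical axis, 4 TUDCA and 2 vehicle arrays), 1 point per gene, coloured by subcomplex. The 3 catalytic genes lie above 0 on both axes, most lid genes lie right of 0 and below it, and Psme1 lies below 0 on both.

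The activators open the barrel in place of the 19S cap. Psme1 and Psme2 encode PA28α and PA28β, which form the cytosolic ring that favours peptide release, Psme3 encodes the nuclear PA28γ, and Psme4 encodes PA200. Psme1 ran from 10.26 through a median of 10.50 to 10.59 under TUDCA and from 10.57 through 10.60 to 10.67 under vehicle. Of the 6 TUDCA arrays 5 lay below every vehicle array. The difference was −0.12 ± 0.06 (SE, 95% interval −0.25 to 0.00, adjusted p = 0.363), with −0.11 in the low and −0.14 in the high range.

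Psme2 ran from 6.63 through a median of 7.02 to 7.12 under TUDCA and from 6.91 through 7.08 to 7.23 under vehicle, with a difference of −0.12 ± 0.09 (SE, adjusted p = 0.619). TUDCA replicate 3 alone lay below all vehicle arrays, and the difference was 0.01 in the low and −0.26 in the high range. Psme3 ran from 8.03 through 8.11 to 8.55 under TUDCA and from 8.04 through 8.10 to 8.43 under vehicle, and Psme4 ran from 9.25 through 9.34 to 9.50 under TUDCA and from 9.20 through 9.28 to 9.48 under vehicle. Their differences were 0.04 ± 0.10 (SE) and −0.01 ± 0.06 (SE), with the groups spanning nearly the same range. Psme3ip1, whose product binds PA28γ, was at −0.11 (adjusted p = 0.45), and Psmc3ip at −0.06 (adjusted p = 0.806). RefSeq also lists Psme2b and pseudogenes of Psma5, Psmb5, Psmb6 and Psmb7, and whether their transcripts reach these probe sets was not tested.

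The immunoproteasome genes had differences below 0, where the constitutive catalytic genes had differences above 0, and none passed. Psmb8 had a difference of −0.35 ± 0.09 (SE, adjusted p = 0.0671), TUDCA arrays averaging 9.82 ± 0.25 and vehicle arrays 10.13 ± 0.04 (SD, n = 6 each), and its groups did not overlap. Psmb9 and Psmb10 were at −0.26 (adjusted p = 0.216) and −0.15 (adjusted p = 0.434). Each was then set against the constitutive gene whose product it replaces, as the difference of their log2 values within an array. These pairs were formed after the values had been seen. They are therefore described without a test, and the level of such a difference depends on the probes and carries no meaning between pairs.

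For Psmb8 minus Psmb5 the within-array difference was 1.53, 0.91, 1.70, 1.79, 1.60 and 1.51 on TUDCA replicates 1 to 6, against 1.90, 1.91, 1.92, 2.10, 2.07 and 2.14 on vehicle replicates 1 to 6. Every TUDCA array lay below every vehicle array. Fitted within the ranges, TUDCA minus vehicle was −0.60 on the log2 scale, a fold of 0.662 of the ratio. For Psmb9 minus Psmb6 TUDCA arrays averaged −0.13 ± 0.31 and vehicle arrays 0.17 ± 0.14 (SD, n = 6 each). The groups overlapped, and the fitted difference was −0.42.

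For Psmb10 minus Psmb7 TUDCA arrays averaged 0.91 ± 0.19 and vehicle arrays 1.15 ± 0.12 (SD, n = 6 each), with a fitted difference of −0.31 and 3 TUDCA arrays below all vehicle arrays. The differences were −0.74, −0.60 and −0.46 in the low range and −0.45, −0.24 and −0.16 in the high range. TUDCA replicate 2 had the lowest value in all 3 pairs, and it was also the array lowest in T and NK cell markers. Without it the differences were −0.44, −0.32 and −0.25.

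**Figure D5:**
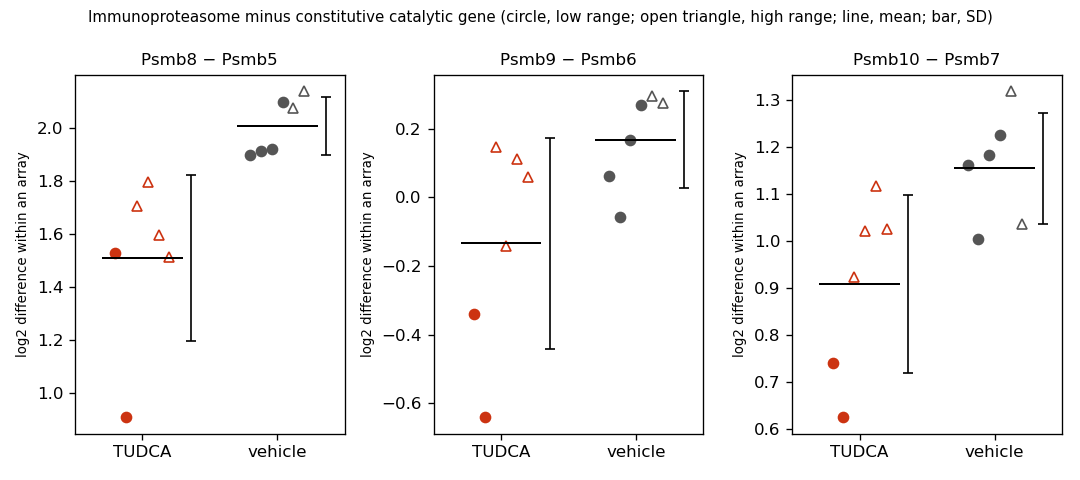
Log2 value of the immunoproteasome gene minus that of its constitutive counterpart on each array (vertical axes), for the 3 catalytic positions. TUDCA arrays are red and left, vehicle arrays grey and right, circles are the low and open triangles the high number range, lines are means and bars SD (n = 6 each); for Psmb8 and Psmb5 the highest TUDCA array is at 1.79 and the lowest vehicle array at 1.90.

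Genes of interferon gamma signalling and of class I peptide loading were measured as the setting of these ratios. Of 14 interferon gamma response genes 8 fell and 0 rose, among them Irf1 (−0.50 ± 0.08 SE) and Irgm2 (−0.65 ± 0.09 SE), with a median difference of −0.56, where 1.52% of all probe sets were called lower and 1.00% higher. The count was 4 without the number range as a term, 5 without TUDCA replicate 1, 5 without TUDCA replicate 2 and 0 in the high range alone. The mean of the list ran from 7.73 to 8.70 over the TUDCA arrays and from 8.51 to 8.96 over the vehicle arrays. Of 11 immunoproteasome and class I loading genes 4 fell and 0 rose, namely the transporter genes Tap1 and Tap2, Tapbp and B2m, with a median of −0.28, against the same 1.52% of all probe sets called lower. This count was 0 in the high range alone, and 1 where the fit held a replicate block beside the range. Their mean ran from 9.59 to 9.995 under TUDCA and from 10.03 to 10.21 under vehicle. Of 10 T and NK cell markers 6 fell and 0 rose, again beside 1.52% of all probe sets called lower, with a median of −0.80. Of 6 macrophage markers 0 passed and all were below 0, with a median of −0.25. Of 4 goblet cell markers Agr2 rose (0.56, adjusted p = 0.0342), Muc2 (0.27) and Tff3 (0.28) did not pass, and Fcgbp was at −0.05. The 6 smooth muscle markers were all below 0 (median −0.16) and the 5 cell cycle genes all above 0 (median 0.12), none past the threshold. For the cell cycle genes the median was 0.20 in the low and 0.02 in the high range. Their mean was 9.09 on TUDCA replicate 1 and 8.61 on TUDCA replicate 3, against 8.54 to 8.94 over the vehicle arrays. The part of these cells and of dividing cells in the values of Psme1 and the other proteasome genes, and in the 3 ratios, was not tested.

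Genes that build and feed the proteasome gave 1 call among 9 measured genes of assembly, inhibition and the remaining subunits. Over all probe sets 1.00% were called higher and 1.52% lower. Psmg1, encoding the alpha ring chaperone PAC1, rose, with a lowest of 7.05, a median of 7.39 and a highest of 7.43 under TUDCA and 6.68, 6.98 and 7.08 under vehicle. On 5 of 6 TUDCA arrays it exceeded all vehicle arrays, with a difference of 0.38 ± 0.09 (SE, adjusted p = 0.0442). The call is marginal: it ended when any 1 of 8 arrays was left out, and adjusted p was 0.438 in the low range alone. Its partner Psmg2 (PAC2) was at 0.19 (adjusted p = 0.343), the maturation factor Pomp at 0.12 (adjusted p = 0.517) and Sem1, a small lid subunit, at 0.16 (adjusted p = 0.45). The median of the 9 was 0.11.

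Of 15 genes of ubiquitin supply and substrate delivery 0 passed, where 2.52% of all probe sets did. The median difference of the 15 was 0.06. The smallest p in that list was that of Txnl1, a thioredoxin-like protein bound to the 19S particle (0.18 ± 0.07 SE, adjusted p = 0.207). Zfand2a, a stress-induced proteasome adaptor, was at 0.21 (adjusted p = 0.611), the deubiquitinase Uchl5 at 0.12 (adjusted p = 0.489) and the unfoldase Vcp at 0.11 (adjusted p = 0.538). None of 5 transcription factor genes passed either. Nfe2l1, encoding NRF1, which drives proteasome genes when proteasome activity is short, was at −0.05 ± 0.05 (SE, adjusted p = 0.729), and Nfe2l2, encoding NRF2, at 0.14 ± 0.07 (SE, adjusted p = 0.406). Nfyb and Nfyc, encoding subunits of NF-Y, were both at 0.06.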

How the data were processed

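The authors deposited 1 table of log2 values, 1 per probe set and array, made with the oligo package and RMA per the submitters' processing notes, which give no versions; RMA subtracts background, quantile-normalises and summarises probes. Array medians lay between 5.90 and 5.95, and such scaling hides any change common to the whole transcriptome. Scanner files and detection calls were not used here, and the number of arrays limits the precision.

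In the platform annotation, 21557 probe sets named 1 gene, 787 several and 1647 none. The model, limma's lmFit and eBayes with a trend (version 3.58.1, R 4.3.3), was run over all 23991 probe sets, with treatment and number range as terms, two-sided tests and Benjamini-Hochberg adjustment over all probe sets. The fit was tested on simulated data. The genes, lists and promoter motifs were chosen with earlier results of these data known. Every gene of the rule is reported, with array values for the catalytic and activator genes and for the 2 genes of smallest p in each subcomplex, and of each related list up to 4 genes of smallest p. Lists are described by counts and medians without a test. List members without a probe set of their own are not analysed here. Nothing in the labels says that arrays come from separate mice beyond their sample numbers, so p-values measure the spread between these samples. Same-numbered replicates were not paired: their deviations from the group means correlated with r from −0.06 to 0.26. No permutation test was run for single proteasome genes, none of the 40 having passed the threshold.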

Additional observations from a re-analysis of the deposited data

Results flagged for a closer look

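Values standing apart from the other 5 arrays of their group were sought with Dixon's test in 132 groups of 6 arrays, and 9 were found, where chance alone flags about 1 in 20. Among the proteasome genes there were 3. Psmd12 was 9.34 on TUDCA replicate 1, the other TUDCA arrays lying from 8.95 to 9.09. Psme2 was 6.63 on TUDCA replicate 3, against 6.99 to 7.12 on the others, and Psme3ip1 was 9.15 on TUDCA replicate 4, against 8.98 to 9.05.

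Of the related genes, Psmg1 was 7.05 on TUDCA replicate 1, below the others at 7.31 to 7.43. TUDCA replicate 2 stood apart in Psmb8 (9.34, the others from 9.76 to 9.998), Psmb9 (8.29, the others from 8.75 to 9.01), Tap1 (9.24, the others from 9.76 to 10.03) and the Psmb8 minus Psmb5 difference (0.91, the others from 1.51 to 1.79). Nfe2l2 was 10.51 on vehicle replicate 4, against 10.16 to 10.26 on the other vehicle arrays.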

How the results depend on the processing

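Over 995 combinations of a proteasome gene and an alternative, 1 gave a call (Psmb5 without TUDCA replicate 3) and 61 a change of sign. The counts called were 0 to 1 higher for all proteasome genes and for the beta ring when each array was left out, and 0 under all other alternatives. Without 1 array the median over the 40 genes ran from 0.010 to 0.10 and that of the alpha ring from −0.049 to 0.077. In the low number range alone the medians were 0.083 for the alpha ring, 0.16 for the base, 0.21 for the lid, 0.19 for the chaperones, 0.029 for the activators, 0.17 for the transcription factors, −0.45 for class I loading and −0.78 for the interferon list. In the high range alone they were −0.031 for all 40 genes, −0.080 for the lid, −0.0055 for ubiquitin supply and −0.24 for the interferon list. Without dim probe sets the alpha ring median was 0.11.

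With the replicate block and the number range, 85 probe sets were called higher and 190 lower over the whole array, with 1 lower in class I loading and 4 lower in the interferon list. The assembly list had 0 higher with either replicate block, in either range alone, with renewed quantile normalisation and without a trend, and 0 to 1 when each array was left out. The high range alone gave 6 higher and 3 lower over all probe sets and 0 in both interferon-related lists, array weights 436 higher and a threshold of 0.1 429 higher. The interferon list had 4 lower without the number range. Without 1 array the ranges were 91 to 292 higher and 151 to 417 lower over all probe sets, 5 to 8 lower in the interferon list, and 0 to 1 higher with medians of 0.033 to 0.13 in ubiquitin supply. The log2 differences of the 3 ratios, described without a test, were −0.74, −0.60 and −0.46 in the low range and −0.45, −0.24 and −0.16 in the high range. Without 1 array they ran from −0.68 to −0.44, from −0.47 to −0.32 and from −0.40 to −0.25. No replicate block was fitted to them.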
